A study of Drosophila melanogaster with 30 samples.

Results

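The acid lipases of Drosophila melanogaster are a family of ester-cleaving enzymes related to the mammalian gastric and lysosomal acid lipases, and 10 of their genes are described here: mag (magro), Lip1, Lip3, Lip4, CG31091, CG31089, CG18301, CG18302, CG17097 and CG8093. They were taken by name, with earlier results of these data known, and all 10 were among the 17713 features that the files list. Whole larvae late in the third instar were sampled, in 3 genotypes on 2 diets, with 5 libraries in each of the 6 groups and 30 in all, and each library held 5 pooled larvae. Every animal carried Tub-GAL80TS and Tub-GAL4, a ubiquitous GAL4 driver held inactive at 18 °C by a temperature-sensitive repressor and released at 29 °C. Controls carried the driver alone, HR3-RNAi animals also carried UAS-Hr3-RNAi, and TOR-RNAi animals also carried UAS-Tor-RNAi, so the controls lacked any hairpin and each knockdown rested on 1 RNAi line. After a spell on low-cholesterol food, larvae of each genotype spent 10 h on medium with 80 µg/mL cholesterol (refed) or stayed at 1.2 µg/mL (low cholesterol). The comparison asked which acid lipase genes answered dietary cholesterol, and whether they did so with TOR or HR3 knocked down.

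Insects cannot make sterols and must take them from food, where part of the cholesterol arrives as esters that have to be cleaved before uptake. Magro is a secreted lipase of the gut that cleaves dietary triglycerides as well as cholesterol esters, and its gene is a known target of the nuclear receptor Hr96, which binds cholesterol. Npc1b, another gene under sterol control, is needed for cholesterol uptake by the midgut. Lip4 is known as a target of the transcription factor FOXO, which is active when insulin signaling is low. The other members are placed in the family by sequence, and most have no described function.

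The genes lie at a few places in the genome, given here in the coordinates of the BDGP6.54 annotation. On chromosome 2L, Lip4 (FBgn0032264, 10527572 to 10531778), CG18301 (FBgn0032265, 10531821 to 10533647) and CG18302 (FBgn0032266, 10534322 to 10536587) stand in a row on the plus strand. Also on 2L are CG17097 (FBgn0265264, 10646415 to 10650152, plus strand) and Lip1 (FBgn0023496, 10699408 to 10701544, minus strand). On 3R, CG31091 (FBgn0051091, 25899903 to 25902172) is followed after 470 bp by CG31089 (FBgn0051089, 25902643 to 25904178), both on the plus strand, while Lip3 (FBgn0023495, 13370240 to 13371904, minus strand) lies elsewhere on that arm. CG8093 (FBgn0033999) is on 2R at 15214060 to 15215686 on the minus strand. The gene of mag (FBgn0036996) is on 3L at 20460683 to 20462274 on the plus strand, within the opposite-strand gene atk but with 0 bp of shared exon. Lip3 shares 107 bp of exon with CheA87a and CG31089 shares 305 bp with the antisense transcript asRNA:CR43259, and since the counting is not stated to use strand, reads of such partners cannot be told apart. In any library, CheA87a had at most 13 counts and the antisense transcript at most 11, against at least 1287 for Lip3 and 204 for CG31089.

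Total counts ran from 19744564 to 33510753 per library. Tor was at 5.68 to 6.91 FPKM in the libraries of control and HR3-RNAi animals and at 3.10 to 5.37 FPKM in those of TOR-RNAi animals (TOR-RNAi against control, log2 fold change -0.65, adjusted p = 3.61e-07 in edgeR). Hr3 was at 2 to 17 counts in every library, and its knockdown was not detectable at this depth (HR3-RNAi against control, log2 fold change -0.39, SE, or standard error, 0.30, and adjusted p = 0.495 over both diets in edgeR). Midgut markers, 23 digestive protease, amylase and other gut genes, had summed levels between 17779.7 and 31431 FPKM. The summed level of the male RNAs roX1 and roX2 ran from 0.698 to 38.2 FPKM and that of 9 testis markers from 0.0549 to 275 FPKM, and no source states the sex of the pools. Salivary gland markers, 7 glue and related genes, ran from 0.0272 to 3934 FPKM. All of these are whole-animal RNA, in which fewer cells of a type and less RNA per cell cannot be told apart.

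Levels are given as the authors' FPKM, counts per kilobase of exon scaled between libraries, which can be compared between genes. The members differed widely in abundance, and their order within each group was the same by means and by medians. In control larvae on low cholesterol mag stood at 1228 ± 194 FPKM (SD, n = 5), CG8093 at 393 ± 42.9, Lip3 at 120 ± 11.3, CG31089 at 9.69 ± 4.35, Lip4 at 2.71 ± 0.517, CG31091 at 2.55 ± 1.83 and Lip1 at 0.351 ± 0.0781. By mean level over all libraries mag was the gene at place 135 of all 17713 features, CG8093 was at place 273 and Lip3 at place 681. Together mag and CG8093 carried most of the family's RNA: mag made up 69.8% ± 1.69 of the summed FPKM of the 10 genes in low-cholesterol controls, and CG8093 22.5% ± 1.59.

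The remaining members were at or near 0. CG18301 had 19 counts in all, spread over 10 of 30 libraries with at most 5 in any, and 5 of those counts came from a low-cholesterol control library. CG18302 and CG17097 had 1 count each, in a refed TOR-RNAi and a refed HR3-RNAi library. A floor of 3 counts per library corresponds to 0.0652 to 0.104 FPKM for CG18301, so expression below that level was not detectable. These 3 genes passed no filter on low counts and were not tested, which leaves 7 tested members. Lip1 was itself low, with 6 to 39 counts per library.

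**Figure D1:**
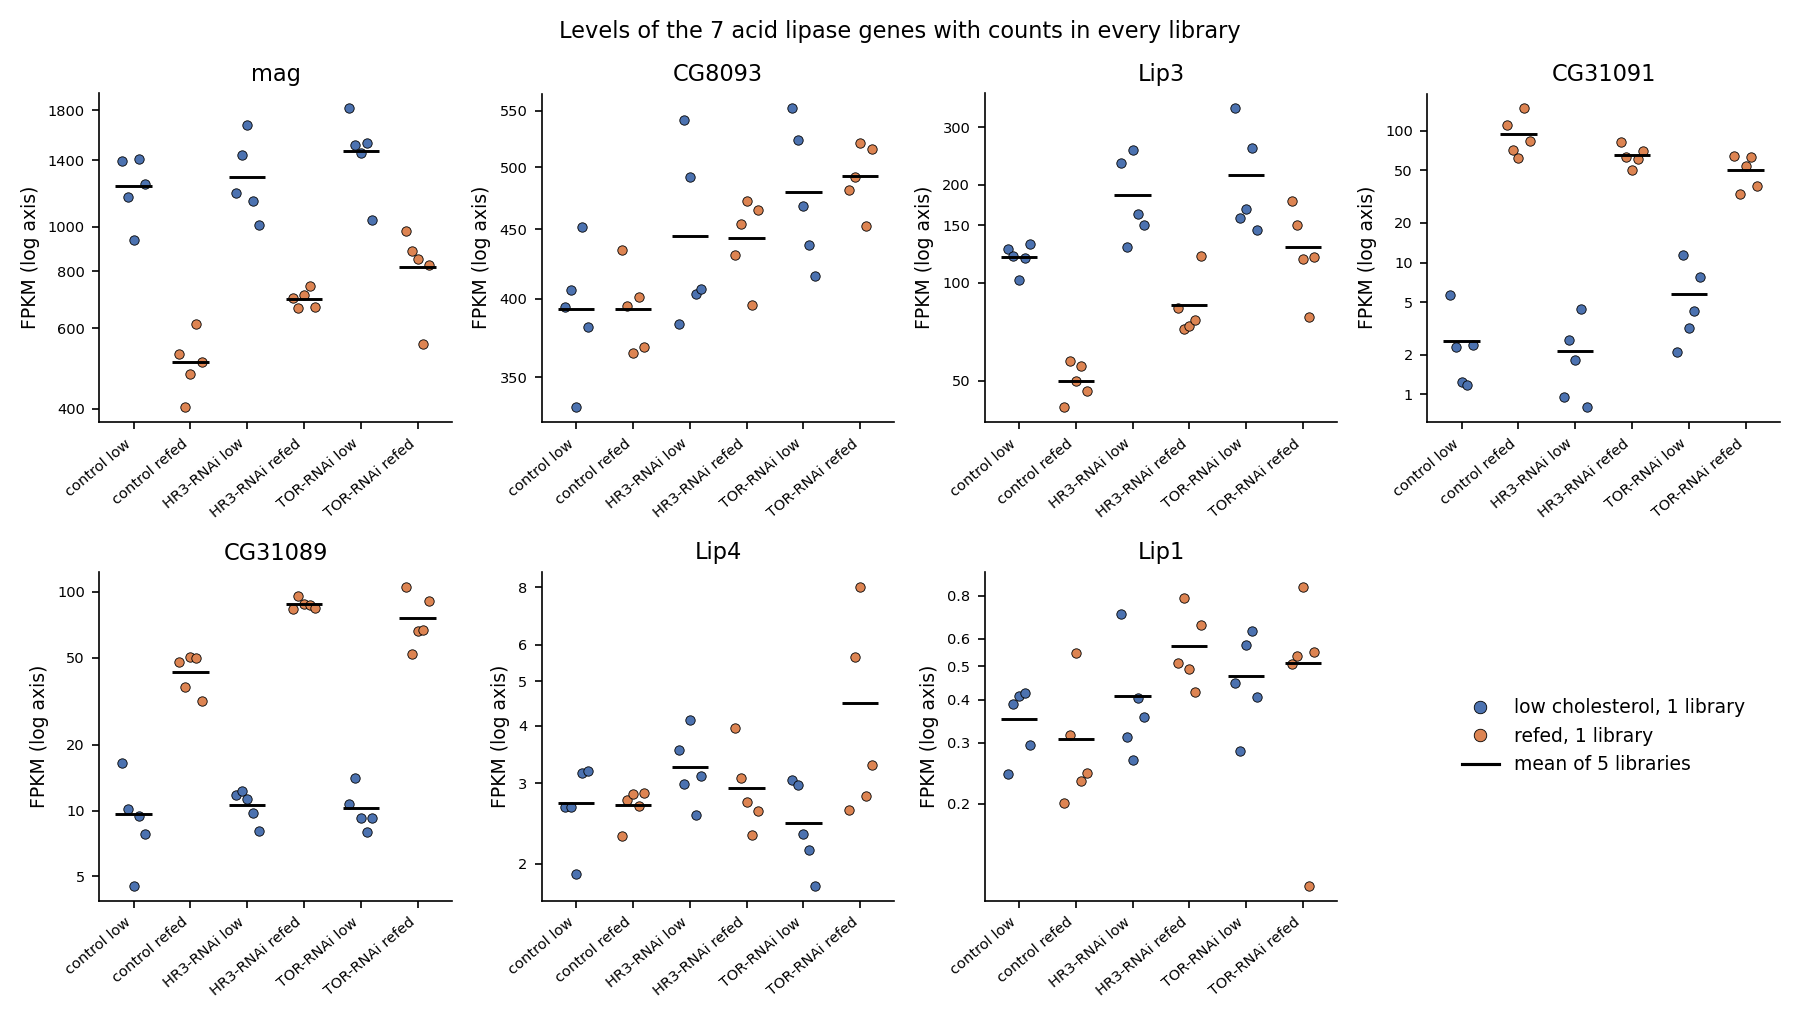
FPKM (log axes) of the 7 acid lipase genes that had counts in every library, by genotype and diet; each point is 1 library of 5 pooled larvae and each bar the mean of 5 libraries. Refed libraries sit below low-cholesterol ones for mag in each genotype (404 to 614 against 936 to 1406 FPKM in controls) and above them for CG31091 and CG31089, while CG8093 overlaps between diets.

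In control larvae the family moved in both directions with cholesterol: mag and Lip3 fell 2.41-fold and 2.37-fold, while CG31091 and CG31089 rose 38.0-fold and 4.51-fold. Of the 7 tested members 4 passed an adjusted p of 0.05, against 3.83% of the 11374 genes tested (2.5% upward and 1.34% downward). As the members were chosen with earlier results of these data known, such shares are given as a description and do not test the family. The same 4 members had refed and low-cholesterol libraries that did not overlap, which held for 5.64% of tested genes (3.26% with refed above and 2.37% with refed below). The median log2 fold change of the 7 was 0.00015, beside -0.0021 for all genes tested. CG8093, Lip1 and Lip4 did not pass the test.

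Magro, the gut lipase, had low-cholesterol control values of 1396, 1161, 936, 1406 and 1240.3 FPKM in replicates 1 to 5. After refeeding the control values were 528, 404, 477, 614 and 507 FPKM. The highest refed library was thus below the lowest low-cholesterol one. In edgeR's quasi-likelihood F test, adjusted by Benjamini and Hochberg's method as in all that follows, the log2 fold change was -1.27 (SE 0.13, 95% interval -1.55 to -0.98, adjusted p = 0.00025), and it stayed between -1.36 and -1.21 with any 1 library omitted. Of 23 midgut markers 5 rose in controls and 0 fell in edgeR, against 2.5% and 1.34% of all genes tested. At an unadjusted p of 0.05, 10 passed, against 14.9% of all genes tested. DESeq2 called 8 higher and 1, alphaTry, lower. The shares of all genes, here and for the other gene lists, are those of edgeR. The shares that DESeq2 called in controls are not given. Their summed level was 22180.4 ± 3121 FPKM on low cholesterol and 26512 ± 1574 FPKM after refeeding.

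Lip3 followed the same course at a lower level. In low-cholesterol controls it was at 127, 121, 102, 119 and 132 FPKM, and in refed controls at 41.4, 57.2, 49.8, 55.2 and 46.4 FPKM. The log2 fold change was -1.24 (SE 0.10, 95% interval -1.47 to -1.02, adjusted p = 5.07e-05). The ratio of Lip3 to mag FPKM within a library was 0.0987 ± 0.0106 on low cholesterol and 0.101 ± 0.0245 after refeeding (SD, n = 5), so the ratio moved by less than its spread between replicates.

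CG31091 made the family's largest change, from near the bottom of the expressed members to above Lip3. Its low-cholesterol control values were 5.67, 2.29, 1.24, 1.18 and 2.36 FPKM, which stand for 79 to 328 counts. The refed controls had 109.8, 70.8, 61.9, 148 and 83.8 FPKM. Even the highest low-cholesterol library, replicate 1, was far below every refed one. The log2 fold change was 5.25 (SE 0.46, 95% interval 4.23 to 6.26, adjusted p = 7.68e-05). Among the 11374 genes tested in controls only 1 rose more, and with single libraries omitted the value lay between 5.03 and 5.74.

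CG31089, the gene just downstream, rose too, but from a higher level and by less. It was at 16.4, 10.2, 4.54, 9.48 and 7.82 FPKM in low-cholesterol controls and at 47.7, 36.6, 50.4, 49.9 and 31.6 FPKM in refed ones, and the diets did not overlap. The log2 fold change was 2.17 (SE 0.28, 95% interval 1.55 to 2.80, adjusted p = 0.00132), at place 15 among the increases. Its share of the members' summed FPKM went from 0.538% ± 0.197 to 3.97% ± 0.703, and that of CG31091 from 0.142% ± 0.0897 to 8.52% ± 2.10. The share of mag went to 46.3% ± 2.84. Summed over the 10 genes, low-cholesterol controls had 1379 to 1990.3 FPKM and refed controls 966 to 1270.2 FPKM.

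CG8093, the second most abundant member, was at 333 to 452 FPKM on low cholesterol and 365 to 435 FPKM after refeeding in controls. The log2 difference of 0.01 had a 95% interval of -0.17 to 0.19 (adjusted p = 0.947), so a change as large as that of mag lies outside the interval. The ratio of mag to CG8093 within a library went from 3.12 ± 0.298 to 1.29 ± 0.189. Lip4, the FOXO target, was at 1.90 to 3.18 FPKM on low cholesterol and 2.30 to 2.85 FPKM after refeeding, with a 95% interval of -0.32 to 0.32. The interval of Lip1 was wider, from -0.93 to 0.60, at 8 to 24 counts per control library.

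**Figure D2:**
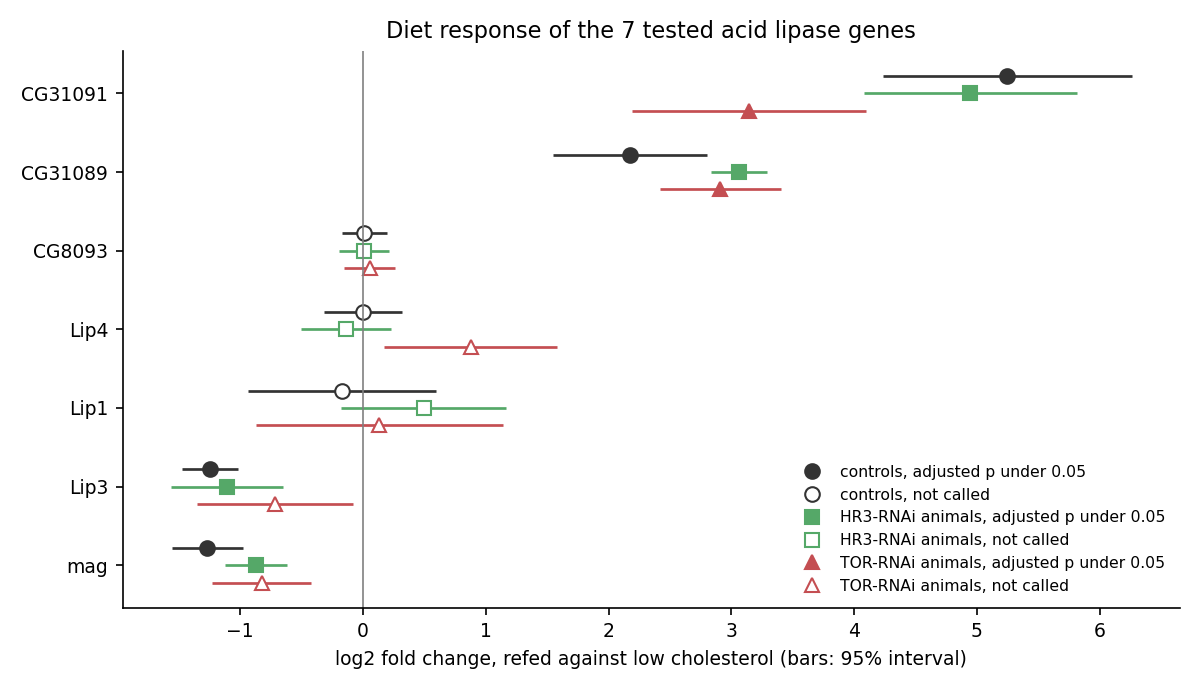
Log2 fold change of refed against low-cholesterol larvae (x axis) for the 7 tested acid lipase genes (y axis) in each genotype, with 95% intervals as bars; filled symbols passed an adjusted p of 0.05 in edgeR. CG31091 and CG31089 lie to the right of 0 in all 3 genotypes, and mag and Lip3 to the left, with the TOR-RNAi values of the latter pair not called.

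In HR3-RNAi larvae the same 4 members were called in the same directions, against 3.44% of the 11615 genes tested (1.58% upward and 1.86% downward). Magro was at 1183, 1436, 1670.2, 1141 and 1009.7 FPKM on low cholesterol and at 698, 665, 710.4, 743 and 669 FPKM after refeeding. These groups did not overlap either, as for 6.15% of genes tested (2.66% with refed above and 3.49% below), and the log2 fold change was -0.87 (SE 0.12, adjusted p = 0.00117). Lip3 fell from 233, 128, 255, 163 and 150.1 FPKM to 83.8, 71.8, 73.8, 76.6 and 121 FPKM, a log2 fold change of -1.11 (SE 0.21, adjusted p = 0.0116). Replicate 5 of the refed group was well above the other 4 and came close to the lowest low-cholesterol library.

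The adjacent pair also rose in HR3-RNAi larvae. CG31091 was at 0.953, 2.58, 1.82, 4.45 and 0.80 FPKM on low cholesterol and at 82.6, 63.5, 49.98, 60.7 and 70.1 FPKM after refeeding, without overlap, a log2 fold change of 4.95 (SE 0.40, adjusted p = 2.11e-05). CG31089 went from 11.8, 12.2, 11.3, 9.74 and 8.07 FPKM to 83.4, 96.2, 87.8, 87.5 and 84.8 FPKM. Its refed replicates were close together, and the log2 fold change of 3.06 (SE 0.10, adjusted p = 1.93e-08) was the increase at place 4 of all genes tested. CG8093, Lip1 and Lip4 were not called, with log2 fold changes of 0.0081, 0.50 and -0.14.

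In TOR-RNAi larvae 2 of the 7 members were called, CG31091 and CG31089, against 0.562% of the 11569 genes tested (0.38% upward and 0.182% downward), and 5 of 7 had an unadjusted p under 0.05, against 8.23%. In 1 common fit of all 30 libraries 4 were called, with mag and Lip4 added. That fit called 339 of the 12178 genes it tested, against 65 of the 11569 here. CG31091 went from 2.10, 11.5, 3.21, 4.26 and 7.73 FPKM on low cholesterol to 63.9, 33.0, 53.8, 63.3 and 38.2 FPKM after refeeding. The low-cholesterol libraries were widely spread, but none reached the refed ones. The log2 fold change was 3.14 (SE 0.43, 95% interval 2.19 to 4.10, adjusted p = 0.00747), an 8.85-fold rise. CG31089 was at 10.8, 14.2, 9.28, 8.01 and 9.23 FPKM on low cholesterol and at 105, 51.9, 66.6, 66.7 and 91.2 FPKM after refeeding. Its diets did not overlap either, with a log2 fold change of 2.91 (SE 0.22, adjusted p = 0.000249).

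Magro and Lip3 had lower refed means in TOR-RNAi larvae as well, but these differences missed the threshold over all genes. Magro was at 1816, 1507, 1449.7, 1529 and 1037 FPKM on low cholesterol and at 978, 887, 849.8, 554 and 826 FPKM after refeeding, without overlap, as was found for 2.4% of genes tested (1.29% with refed above and 1.12% below). Its log2 fold change was -0.82 (SE 0.18, 95% interval -1.23 to -0.42, unadjusted p = 0.00102, adjusted p = 0.115 in edgeR). Lip3 libraries overlapped between diets, with 145 to 343 FPKM on low cholesterol and 78.6 to 178 FPKM after refeeding (log2 fold change -0.71, 95% interval -1.35 to -0.08, adjusted p = 0.527). The biological coefficient of variation over all genes was 32.02% in this genotype, against 25.9% in controls and 18.6% in HR3-RNAi larvae. For mag the call depended on the fit: the adjusted p was 0.00218 in 1 common fit of all 30 libraries and 0.000209 in DESeq2.

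Lip4 gave its widest spread in refed TOR-RNAi larvae, at 2.62, 5.63, 8.01, 2.81 and 3.29 FPKM in replicates 1 to 5, against 1.79 to 3.05 FPKM on low cholesterol. Replicates 2 and 3 were high and the other 3 lay near the remaining groups (log2 fold change 0.88, 95% interval 0.18 to 1.58, adjusted p = 0.446). CG8093 was at 416 to 552 FPKM on low cholesterol and 453 to 521 FPKM after refeeding, and Lip1, at 6 to 39 counts per library, overlapped between diets as well. Neither was called (log2 fold changes of 0.05 and 0.13).

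The make-up of the family's RNA shifted with cholesterol in each genotype. The share of mag in the summed FPKM of the 10 genes was 66.3% ± 1.87 on low cholesterol and 50.4% ± 2.61 after refeeding in HR3-RNAi larvae, and 67.2% ± 1.91 and 51.7% ± 3.68 in TOR-RNAi larvae (SD, n = 5). That of CG8093, whose own level did not pass the test, was 23.2% ± 2.51 and 32.1% ± 2.01 in HR3-RNAi larvae and 22.3% ± 2.51 and 31.7% ± 3.81 in TOR-RNAi larvae. No low-cholesterol library reached a refed one, or the reverse, for either share in any genotype. CG31091 and CG31089 together remained a minor part: in refed larvae CG31091 held 4.73% ± 0.866 in HR3-RNAi and 3.30% ± 1.23 in TOR-RNAi larvae, and CG31089 6.36% ± 0.447 and 4.87% ± 1.15. The summed level was 1579 to 2434 FPKM on low cholesterol and 1355 to 1413 FPKM after refeeding with HR3 knocked down, and 1618 to 2727 FPKM and 1219 to 1809 FPKM with TOR knocked down, where the diets overlapped. The ratio of mag to CG31091 FPKM went from 646 ± 356 to 5.68 ± 1.35 in control larvae, from 847 ± 438 to 10.99 ± 2.28 after HR3-RNAi and from 388 ± 301 to 17.7 ± 6.88 after TOR-RNAi.

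The difference in diet response between a knockdown and the controls was tested as an interaction over all 30 libraries. In edgeR 0 of the 7 members passed in either knockdown, as did 0% of 12178 genes tested. At an unadjusted p of 0.05, 1 member passed with HR3 knocked down and 4 with TOR knocked down, beside 6.72% and 9.12% of all genes. DESeq2 called 0 members in the former case and 1, CG31091, in the latter, where it called 128 genes in all. For CG31091 the diet response in TOR-RNAi larvae minus that in controls was -2.09 on the log2 scale (95% interval -3.32 to -0.87, unadjusted p = 0.00158, adjusted p = 0.256), and the adjusted p was 0.043 in DESeq2. With the level of roX1 and roX2 as a covariate the same difference was -2.66 (adjusted p = 0.0164), in a fit that called 22 genes. DESeq2 and the roX covariate were 2 of 6 alternative settings. The other 4 did not call it, and over the 6 the adjusted p ran up to 0.525.

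The roX level went with that of CG31091 across libraries once the 6 group means had been taken out, with a Pearson's r of 0.64 over 30 libraries. For the other tested members r ran from -0.47, for Lip3, to 0.08, for CG31089. In controls the roX level was 13.5 to 38.2 FPKM on low cholesterol and 1.87 to 33.4 FPKM after refeeding. With the roX covariate the log2 diet response of CG31091 was 5.79 without a hairpin, 5.03 with HR3-RNAi and 3.09 with TOR-RNAi, and that of mag was -1.11, -0.87 and -0.77, so each stayed on its side of 0. The part of the pools' sex in the level of CG31091 was not tested beyond this covariate.

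For mag the interaction was 0.39 for HR3-RNAi (95% interval -0.05 to 0.83) and 0.46 for TOR-RNAi (0.02 to 0.90, unadjusted p = 0.0402, adjusted p = 0.526), where a positive value stands for a smaller fall than in controls. For CG31089 it was 0.88 and 0.75, with unadjusted p of 0.00897 and 0.0241 and adjusted p of 0.605 and 0.458. For Lip3 it was 0.14 and 0.55, and for Lip4 -0.13 and 0.90. None of these passed the adjusted test.

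Averaged over both diets, some members were higher in the knockdowns than in controls, in comparisons that share the control libraries. In TOR-RNAi larvae 4 of 7 were called, all higher, against 20.9% of the 12178 genes tested (8.72% upward), and 5 had an unadjusted p under 0.05, against 33.1%. The called members were Lip3, higher by 1.09 on the log2 scale (SE 0.16, adjusted p = 2.38e-05), mag by 0.46 (SE 0.11, adjusted p = 0.00305), CG31089 by 0.44 (SE 0.16, adjusted p = 0.0454) and CG8093 by 0.29 (SE 0.06, adjusted p = 0.00228). The call for CG31089 was lost in 21 of 30 fits that left out 1 library, with an adjusted p of up to 0.108, and Lip1 was called without replicate 4 of refed TOR-RNAi larvae (0.67, adjusted p = 0.0268). In HR3-RNAi larvae 2 of 7 were called, against 7.53% of genes (3.3% upward), and 5 had an unadjusted p under 0.05, against 20.3%. Lip3 was higher by 0.71 (adjusted p = 0.00531) and CG31089 by 0.58 (adjusted p = 0.019). Without replicate 5 of the refed controls the adjusted p of CG31089 was 0.0503. For CG31091 neither knockdown was called (log2 fold changes of -0.38 for HR3-RNAi and 0.13 for TOR-RNAi). Such averages can hide a difference between the diets. Mean CG31089 in control, HR3-RNAi and TOR-RNAi larvae was 9.69, 10.6 and 10.3 FPKM on low cholesterol. After refeeding it was 43.2, 87.9 and 76.3 FPKM. Mean CG31091 in TOR-RNAi larvae was above controls on low cholesterol (5.76 against 2.55 FPKM) and below them after refeeding (50.4 against 94.8 FPKM). TOR-RNAi and control libraries overlapped for CG31091 on either diet. Genotypes were not tested within a diet, and the TOR-RNAi interaction of CG31091 was not called in edgeR (adjusted p = 0.256).

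Ordered by mean level, the 6 groups of mag ran from low-cholesterol TOR-RNAi (1468 ± 279 FPKM) through low-cholesterol HR3-RNAi (1288 ± 264) and control (1228 ± 194) to refed TOR-RNAi (819 ± 159), refed HR3-RNAi (697 ± 32.1) and refed control (506 ± 76.4). Neighbours in this order overlapped in their replicates except refed HR3-RNAi and refed control. For Lip3 refed controls were likewise the lowest group, and every refed HR3-RNAi library, at 71.8 FPKM or more, was above every refed control, at 57.2 FPKM or less. The order for CG31091 was led by refed controls (94.8 ± 34.6 FPKM), then refed HR3-RNAi (65.4 ± 12.05) and refed TOR-RNAi (50.4 ± 14.3), each overlapping with the next. For CG31089 refed controls (43.2 ± 8.58) were instead below refed TOR-RNAi (76.3 ± 21.5) and refed HR3-RNAi (87.9 ± 5.00), which overlapped with each other. No refed control library reached the lowest refed TOR-RNAi one. The share of all genes whose replicates separated in this way between genotypes was not counted.

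**Figure D3:**
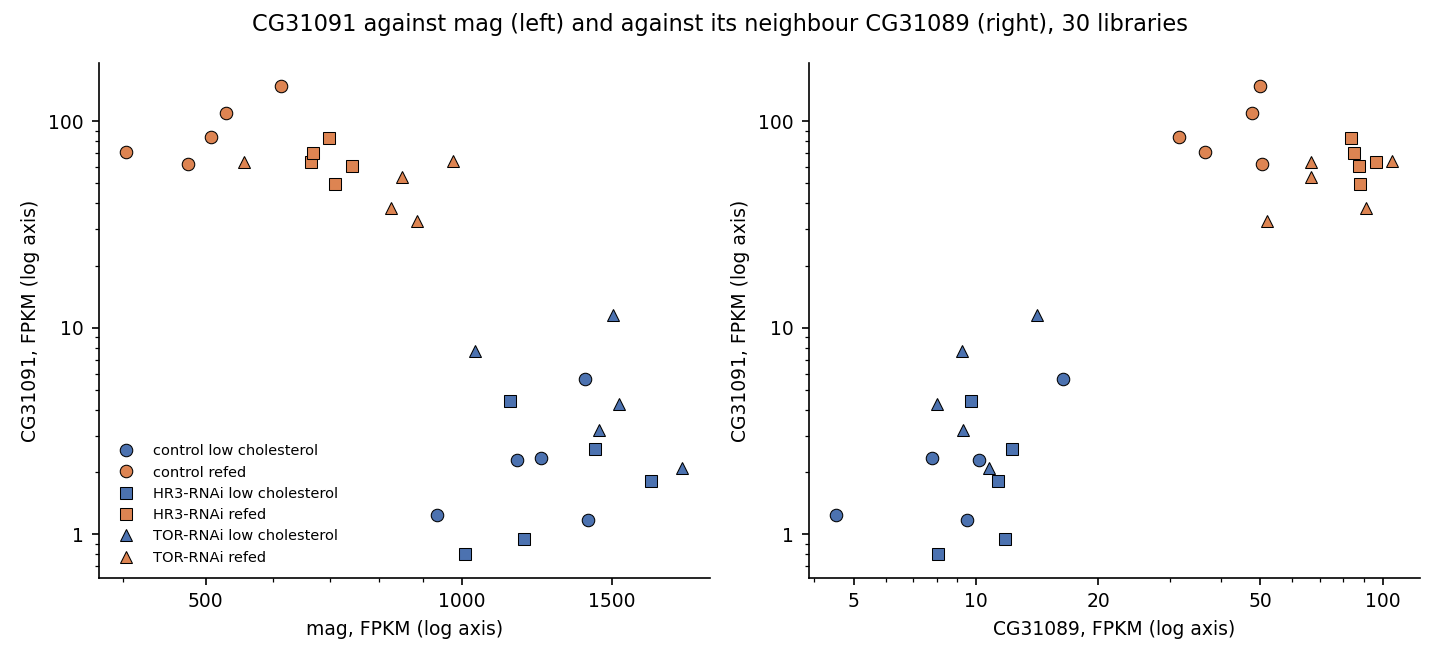
FPKM of CG31091 (y axis, log) against that of mag (left, x axis, log) and of its neighbour CG31089 (right, x axis, log), 1 point per library; symbols mark the genotype and colours the diet. Low-cholesterol and refed libraries form separate clouds in both panels, and refed controls lie above refed knockdowns in CG31091 relative to CG31089 (ratio 2.22 against 0.748 and 0.684).

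The adjacent genes CG31091 and CG31089 did not keep a fixed ratio. Within a library, the ratio of CG31091 to CG31089 FPKM was 0.254 ± 0.0847 in controls on low cholesterol and 2.22 ± 0.670 after refeeding (SD, n = 5). It was 0.202 ± 0.152 and 0.748 ± 0.164 in HR3-RNAi larvae, and 0.544 ± 0.282 and 0.684 ± 0.203 in TOR-RNAi larvae. The lowest refed control ratio, 1.23, was above the highest refed HR3-RNAi ratio, 0.990, and the highest refed TOR-RNAi ratio, 0.950. How often ratios of other genes separate likewise was not counted. The other genes nearby were not called in any genotype in which they could be tested. In controls the upstream genes Sodq and CG5913 moved by -0.96 and 0.0012 and the downstream kumpel by 0.17 on the log2 scale, and Mco3, which ends 158 bp before CG31091, was too low to test. Around mag, the surrounding gene atk moved by -0.62 on the log2 scale in controls (adjusted p = 0.292) at 23 to 87 counts per control library, against 14493 to 64853 for mag.

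**Figure D4:**
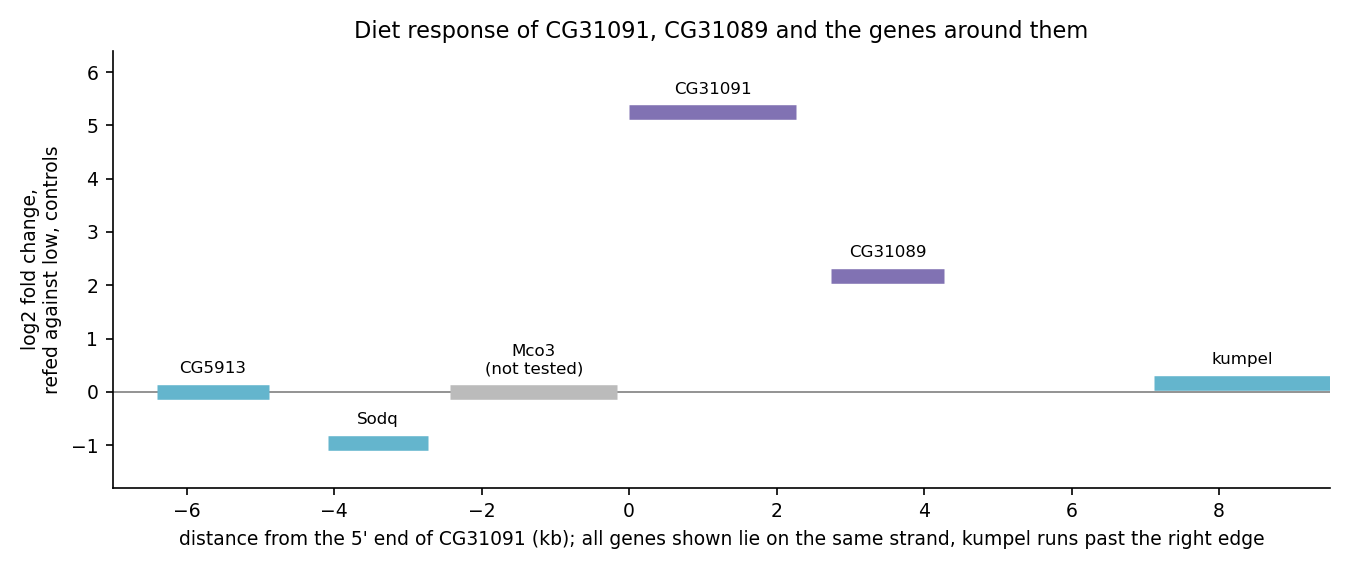
Log2 fold change of refed against low-cholesterol controls (y axis) for CG31091, CG31089 and the nearest genes, drawn at their distance in kb from the 5' end of CG31091 (x axis). CG31091 (5.25) and CG31089 (2.17) stand above the line at 0, and Sodq, CG5913 and kumpel were not called; Mco3 was not tested and is drawn at 0.

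After the group means were subtracted, the members most alike were mag and CG8093 (Pearson's r = 0.63 over 30 libraries) and mag and Lip3 (r = 0.57). For mag and CG31091 r was -0.0076, and the lowest r of the 21 pairs was -0.45, for Lip1 and CG31091. These points share libraries and pools, and are given as a description. Among all 12178 genes, those most like mag were CG7916 (r = 0.92), CG8997 (r = 0.90) and the neutral lipase CG6277 (r = 0.88). CG7916 and CG8997 also fell with cholesterol in controls, by log2 fold changes of -0.77 (adjusted p = 0.00463) and -0.71 (adjusted p = 0.00671), whereas CG6277 was not called (log2 fold change 0.47).

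For Lip3 the most alike were Sptz (r = 0.85), CG13531 (r = 0.84) and CG1827 (r = 0.83), and none of these was called for diet in any genotype in edgeR. For CG31091 they were CG32797 (r = 0.79), CG1835 (r = 0.76) and the katanin-like gene kat-60L1 (r = 0.74), and for CG31089 the trypsin gene thetaTry (r = 0.77), the hexamerin gene Lsp1gamma (r = 0.70) and CG9471 (r = 0.69). Of these 6 none was called for diet in edgeR, CG32797 being too low to test within a genotype, and DESeq2 called thetaTry in controls.

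Of 13 further acid lipase genes, 4 could be tested in controls, and 2 rose, against 2.5% of all genes tested. CG2772 went from 28.03 ± 2.93 to 50.2 ± 4.07 FPKM (log2 fold change 0.85, SE 0.08, adjusted p = 0.000133) and CG3635 from 7.40 ± 1.51 to 13.5 ± 1.95 FPKM (0.88, SE 0.15, adjusted p = 0.00775). Both were also called in HR3-RNAi larvae, at 0.64 and 0.77, and neither in TOR-RNAi larvae, at 0.67 and 0.51. The other tested genes, Lip2 and CG6753, were not called (log2 fold changes of -0.05 and -0.49), and the 9 remaining were too low to test in controls. The median over the 4 was 0.40.

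No lipase of the other classes was called in edgeR. The neutral, pancreatic-type lipase family holds digestive lipases as well as the related yolk proteins Yp1, Yp2 and Yp3 that lack lipase activity. Of its 27 genes 17 were tested in controls and 0 were called, against 3.83% of all genes tested, with a median of 0.065. At an unadjusted p of 0.05, 3 passed, Yp3 among them, against 14.9% of all genes tested. The storage-fat genes, 5 lipases and droplet proteins of the fat body, had 0 calls, a median of 0.13 and 1 at an unadjusted p of 0.05, against the same shares. DESeq2 called 1 gene of the neutral lipase family, CG5162, at 0.31, and 0 storage-fat genes. Of 14 genes of sterol uptake and handling 12 were tested, of which 4 fell and 2 rose, against 1.34% and 2.5% of all genes tested. Npc1b, needed for gut sterol uptake, had a log2 fold change of -2.83, and the receptor gene Hr96 one of -1.50. Npc2d (-2.51), Npc2c (10.9), both of the sterol-binding NPC2 family, and the scavenger receptor gene ninaD (-1.03) were also called. In controls Npc2c had a mean of 0.064 FPKM on low cholesterol (0 to 0.177 FPKM) and of 134.8 FPKM after refeeding. Its rise was thus from a level near 0, and the size of its fold change is not well determined.

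**Figure D5:**
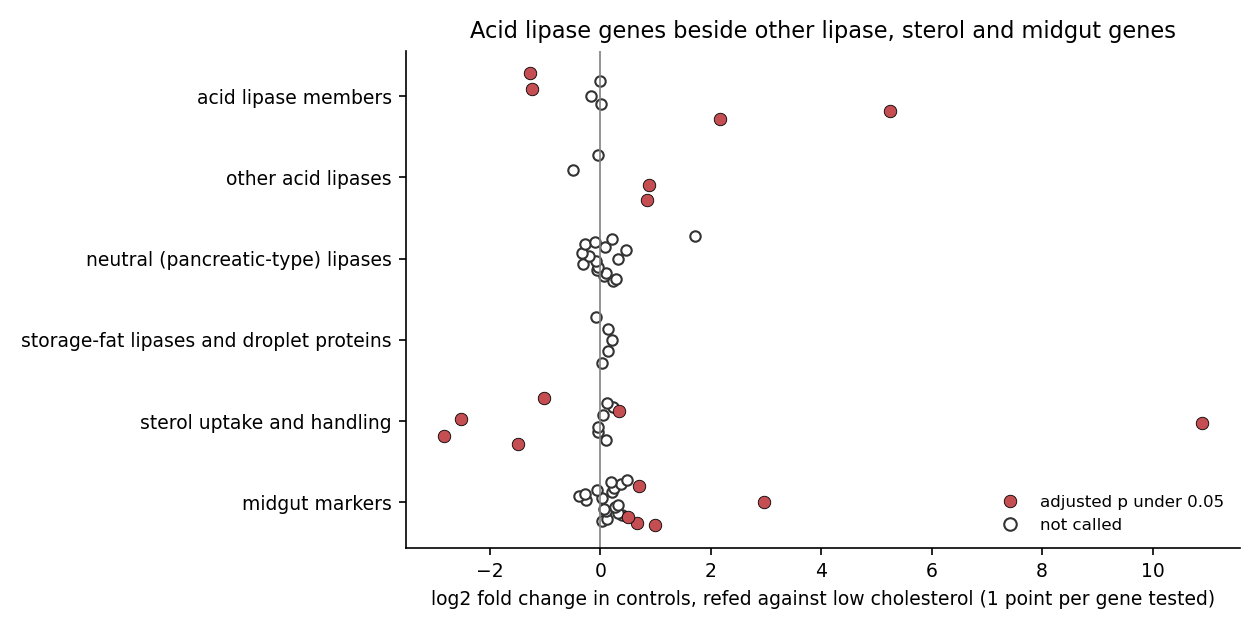
Log2 fold change of refed against low-cholesterol controls (x axis) for every tested gene of 6 gene lists (rows), 1 point per gene; filled points passed an adjusted p of 0.05 in edgeR. The acid lipase members spread from -1.27 to 5.25, while none of the 17 genes of the neutral lipase family and none of the 5 storage-fat genes was called.

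In the other genotypes the falls of Npc1b and Hr96 were again called. Npc1b went from 218 ± 19.9 to 30.4 ± 8.61 FPKM in controls, and fell by 2.84 on the log2 scale with HR3 and by 2.50 with TOR knocked down. Hr96 went from 34.3 ± 1.83 to 12.04 ± 1.17 FPKM in controls, with -1.41 and -1.12 in the knockdowns. The midgut genes that rose in controls were LManVI, an alpha-mannosidase gene (log2 fold change 2.96), the amylase genes Amy-d (0.98) and Amy-p (0.67), the trypsin gene iotaTry (0.70) and the Jonah protease gene Jon65Aiii (0.51). Fat body markers gave 1 call of 7 in edgeR, Fbp1, the hexamerin receptor gene (log2 fold change 4.87), with 4 at an unadjusted p of 0.05, and DESeq2 called 2 higher, adding the hexamerin gene Lsp1alpha (0.44). Of 7 salivary gland markers 2 could be tested and 0 were called, but both had an unadjusted p under 0.05, against 14.9% of all genes tested. Their median log2 fold change was 4.38. Summed levels of the 7 were 1.11 to 50.2 FPKM in low-cholesterol and 2.60 to 1568 FPKM in refed controls. The refed mean of 323 FPKM was far above the refed median of 15.8 FPKM, and the low-cholesterol median was 3.73 FPKM. The part of such tissues in the results was not tested. Testis markers gave 0 calls of 9 and the roX RNAs 0 of 2, in DESeq2 as well. The median of the 9 testis markers was -0.90 and that of the roX RNAs -1.12, with wide spread between libraries, and 0 of either were under an unadjusted p of 0.05.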

How the data were processed

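Reads of 30 whole-larva libraries were processed for the authors by a sequencing provider with CASAVA, HISAT2, StringTie, featureCounts, DESeq2 and edgeR, whose versions and genome build are not given in the sources used here. The authors deposited raw counts per gene and FPKM; exon lengths implied by the deposited FPKM matched BDGP6.54 within 5% for 99% of 10475 genes, and the FPKM were scaled by median-of-ratios size factors. Here the counts were tested with edgeR 4.0.16 (quasi-likelihood F test, TMM, default filter on low counts, Benjamini-Hochberg adjustment over all genes tested, threshold 0.05) in R 4.3.3, within a genotype for diet and over all 30 libraries for interactions and genotypes. Alternatives were DESeq2 1.42.0, limma 3.58.1 on log2(FPKM + 1) or log2(FPKM + 0.1), other scaling, filter, block, covariate or libraries, and leaving out each library. Scripts were tested on simulated data.

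The labels place the replicates in separate pools but do not say that these came from separate cultures, so p-values measure the spread between pools. The 95% intervals of the quasi-likelihood fits rest on that spread as well, while the floors cover counting error only. The members and gene lists were chosen with earlier results of these data known. All 10 members are named. From each other list at most 5 genes called in controls are named, largest change first, with Hr96 and Npc1b, and the 3 genes most alike (Pearson's r of group-centred log2 CPM) for mag and each member called in controls. Sharing of reads between paralogs was not checked, and no sequence is given.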

Additional observations from a re-analysis of the deposited data

Results flagged for a closer look

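Of 43 groups of 5 libraries in which a member had more than 3 counts, 2 held a library far from the other 4, where chance gives about 1 in 20 groups. Replicate 5 of the refed HR3-RNAi larvae had 121.05 FPKM of Lip3, against 71.8 to 83.8 FPKM in the other replicates of its group. Replicate 1 of the low-cholesterol controls had 5.67 FPKM of CG31091, against 1.18 to 2.36 FPKM in the others, and it also had the highest CG31089 level of its group, 16.4 FPKM.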

How the results depend on the processing

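Of 62 results, 49 kept their direction and their side of the threshold under every alternative setting, as did 379 of 408 values under those settings and 1146 of 1200 with 1 library left out. Some of these results are orders by level or counts of members called, and a count that moved little was taken as kept. Over the settings, 2 to 3 members were called for HR3-RNAi against control and 3 to 4 for TOR-RNAi against control. In controls and HR3-RNAi larvae the 4 called diet responses kept both throughout. In TOR-RNAi larvae 4 members were called for diet with 1 fit of all 30 libraries, adding mag and Lip4 (0.89, adjusted p = 0.0327), over 339 genes in all against 65. With the replicate number as a block 1 was called, of 30 genes in all, and CG31091 was at 3.33 (adjusted p = 0.130). Same-numbered libraries correlated at r of -0.73 to 0.45 after group means were taken out. In no genotype were all 5 pairs over 0.1, though 4 were in HR3-RNAi larvae, so the numbers were not taken as pairs, and in each genotype 1 of 5 correlated best with its own number. DESeq2's Wald test and the roX covariate each gave 1 member for the TOR-RNAi interaction, CG31091, over 128 and 22 genes against 0. The cause was not tested.

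CG31089 in TOR-RNAi against control lost its call without a filter on low counts (0.44, adjusted p = 0.0568) and in a fit of 20 libraries (adjusted p = 0.107). Its adjusted p ranged from 0.0249 to 0.107 over the alternatives. CG8093 in HR3-RNAi against control was called with the roX covariate (0.20, adjusted p = 0.041). Under these settings, signs changed for values near 0. Lip4 in controls was -0.0144 with DESeq2 size factors, -0.0242 without a filter, -0.0137 in DESeq2, -0.0237 with roX, -0.00712 in 1 fit and -0.00118 in limma with or without a filter. CG8093 in controls was -0.00102, -0.0105, -0.00101 and -0.00704 under the first 4 of these, and in HR3-RNAi larvae -0.000977 and -0.00097 with size factors and in DESeq2. Its HR3-RNAi interaction was 0.00373 with the replicate block and 0.0459 with roX. Lip1 in TOR-RNAi larvae was -0.00682 in limma with a pseudocount of 0.1.

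With 1 library left out, 1 to 2 members were called for HR3-RNAi against control. The sign changed for Lip4 (-0.11 to 0.064) and CG8093 (-0.0504 to 0.0607) in controls, CG8093 in HR3-RNAi (-0.0335 to 0.0832), Lip1 in TOR-RNAi (-0.0945 to 0.41), the HR3-RNAi interactions of Lip3 (-0.0247 to 0.27), CG31091 (-0.80 to 0.18) and CG8093 (-0.0626 to 0.0704), the TOR-RNAi interaction of CG8093 (-0.0128 to 0.12) and CG31091 in TOR-RNAi against control (-0.0754 to 0.37). Members below about 40 counts per library, Lip1 and the 3 near 0, are limited by depth.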
